A study of Mus musculus with 29 samples.

Results

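The genes of MHC class II antigen presentation were followed in mouse B cell progenitors with and without the transcription factor Pax5. The genes were H2-Aa, H2-Ab1, H2-Eb1, Cd74, Ciita, H2-DMa, H2-DMb1, H2-DMb2, H2-Oa and H2-Ob, which were chosen by name and matched to the entry names of the expression tables. All 10 were found among the 24732 entries of the mm9 tables and among the 25588 entries of the mm10 tables. The study asked how the fusion of PAX5 with the kinase JAK2 leads to B cell leukemia, and the libraries used here describe normal and Pax5-deficient progenitors. RNA-seq libraries came from pro-B cells of wild-type mice (n = 3), from Pax5(-/-) progenitors (n = 2) and from pro-B cells of Pax5(+/+) Meox2-cre mice (n = 3), in which Cre is expressed from the Meox2 locus throughout the body. All mice are labelled C57BL/6, and all cells were sorted by flow cytometry directly from the animal. The study's methods give an age of 3 weeks for the Meox2-cre pro-B cells, which were pooled before sequencing, and the age of the other mice is not given in the sources used here. Its sample list carries the Meox2-cre mice with a heterozygous Pax5 genotype, whereas the labels name them Pax5(+/+).

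The sort differed between the genotypes. Both gates took B220+ Kit+ cells, but CD2- IgM- IgD- cells were taken for pro-B cells and Ly6D+ cells for Pax5-deficient progenitors, so gate and genotype cannot be told apart in any difference below. All values are TPM, a measure of transcript abundance scaled to gene length and to the same sum in each library, so levels of different genes can be compared. Between 9133 and 9637 entries per library exceeded 5 TPM, and the depth in reads is not given. The commonest ratio between low values put the depth of the Pax5(-/-) libraries at 0.853 and 1.55 times that of the first wild-type library. Pax5 itself was measured at 342, 386 and 391 TPM in wild-type and at 43.0 and 39.1 TPM in Pax5(-/-) cells. No source says that the libraries of a genotype came from different animals, so p-values measure the spread between these libraries, which may be technical. In bulk RNA, fewer cells of a type and less RNA per cell cannot be told apart.

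MHC class II molecules present peptides from the endosome to CD4 T cells. In the C57BL/6 strain the molecule at the surface is I-A, whose alpha chain is encoded by H2-Aa and whose beta chain by H2-Ab1, while the I-E alpha gene H2-Ea is defective and the beta chain gene H2-Eb1 lacks a partner. Newly made chains bind the invariant chain, encoded by Cd74, which blocks the peptide groove and guides them to the endosome. There H2-DM (H2-DMa with H2-DMb1 or H2-DMb2) removes the invariant chain remnant and loads peptides, and H2-O (H2-Oa with H2-Ob), known from B cells, inhibits H2-DM. The coactivator CIITA, the product of Ciita, does not bind DNA itself but joins RFX, CREB and NF-Y, which sit on the X and Y boxes of class II promoters. Early B cell progenitors of the mouse are known for low surface class II, which increases as B cells mature.

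The promoters are shown first because class II genes that fell and genes that rose in Pax5(-/-) cells held the same arrangement of boxes. The genes that fell were H2-Aa, H2-Eb1 and H2-Ob, and those that rose were H2-DMb1 and H2-Eb2. H2-Oa, which did not pass the test, held this arrangement too. By the letters searched, the windows of H2-DMa and H2-DMb2, which rose, did not hold it. RefSeq windows (GRCm38.p6, 250 bases before to 50 bases after the start) were at hand for H2-Aa, H2-Eb1, H2-DMa, H2-DMb1, H2-DMb2, H2-Oa, H2-Ob and the second beta chain gene H2-Eb2, and not for H2-Ab1, Ciita and Cd74. The letters CNNGNAAC were taken for the core of the X box and GATTGG, the reverse complement of the CCAAT motif with its neighbours, for the Y box. Both were chosen with these sequences known and were searched on both strands. A match of CNNGNAAC followed by GATTGG on the same strand after 15 to 35 bases was present in the windows of H2-Aa, H2-Eb1, H2-Oa, H2-Ob, H2-DMb1 and H2-Eb2, and in 0.256% of all 32851 promoter windows. CNNGNAAC alone was in 39.1% and GATTGG alone in 16.1% of all windows. The following lines run 5′ to 3′ on the strand of the gene, with these letters in capitals.
H2-Aa: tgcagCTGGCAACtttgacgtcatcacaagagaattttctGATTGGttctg (chr17:34287862-34287912, - strand)
H2-Eb1: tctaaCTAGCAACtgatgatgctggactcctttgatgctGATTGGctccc (chr17:34305768-34305817, + strand)
H2-Ob: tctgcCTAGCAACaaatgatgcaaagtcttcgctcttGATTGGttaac (chr17:34238810-34238857, + strand)
H2-Oa: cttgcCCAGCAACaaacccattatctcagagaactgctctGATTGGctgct (chr17:34092295-34092345, + strand)
H2-DMb1: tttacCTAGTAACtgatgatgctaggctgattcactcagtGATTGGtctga (chr17:34153089-34153139, + strand)
H2-DMb2: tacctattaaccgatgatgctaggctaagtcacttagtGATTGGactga (chr17:34145120-34145168, + strand)
H2-Eb2: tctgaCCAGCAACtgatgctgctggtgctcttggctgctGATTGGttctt (chr17:34325535-34325584, + strand)
In H2-DMb2 only the Y box is in capitals, since CNNGNAAC was not found 15 to 35 bases before it. The segment holds ctattaac there, with t in place of the G of CNNGNAAC. The boxes were 24 to 27 bases apart in the 6 genes with both, and the Y box ended 38 to 95 bases before the start site in all 7 segments. Neither of the 2 windows of H2-DMa held both boxes in this arrangement. On either strand, CNNGNAAC was in 2 of these windows and GATTGG in 1.

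The class II pathway genes did not differ in a common direction between Pax5(-/-) progenitors and wild-type pro-B cells. In Pax5(-/-) progenitors the peptide loading genes H2-DMa, H2-DMb1 and H2-DMb2 rose, the chain genes H2-Aa, H2-Ab1 and H2-Eb1, the coactivator gene Ciita and the inhibitor gene H2-Ob fell, and Cd74 and H2-Oa did not pass the test. The test was limma on log2(TPM + 0.5) over 12066 genes with a mean over 1 TPM in either genotype, which included all 10 genes, and its threshold was an adjusted p (Benjamini-Hochberg) below 0.05. Thus 3 of 10 genes rose, against 15.6% of all genes tested, and 5 of 10 fell, against 21.5% of all genes. When the change also had to exceed 3-fold and the level 5 TPM in either genotype, 2 genes were called higher (H2-DMa and H2-DMb2), against 2.71% of all genes, and 2 were called lower (H2-Aa and H2-Ob), against 3.15%. Both Pax5(-/-) libraries lay above all wild-type libraries for 3 genes, against 26.1% of all genes, and below them for 5 genes, against 37.4%. The median log2 change of the 10 genes was −0.50, and that of all genes tested was −0.12. Ciita passed the filter only through the wild-type mean.

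**Figure D1:**
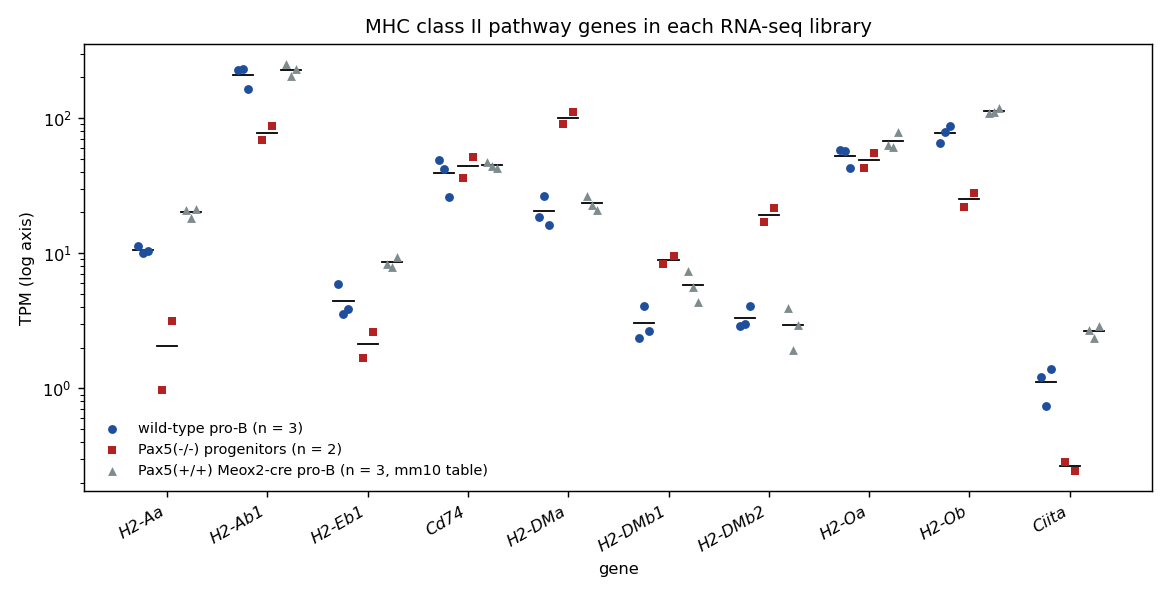
TPM of the 10 class II pathway genes on a log axis, with a point for each library, a bar for the mean of each group, circles for wild-type, squares for Pax5(-/-) and triangles for Pax5(+/+) Meox2-cre, whose values come from mm10 tables. H2-DMa, H2-DMb1 and H2-DMb2 lie higher and H2-Aa, H2-Ab1, H2-Eb1, H2-Ob and Ciita lower in both Pax5(-/-) libraries than in every wild-type library, while Cd74 and H2-Oa overlap.

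**Figure D2:**
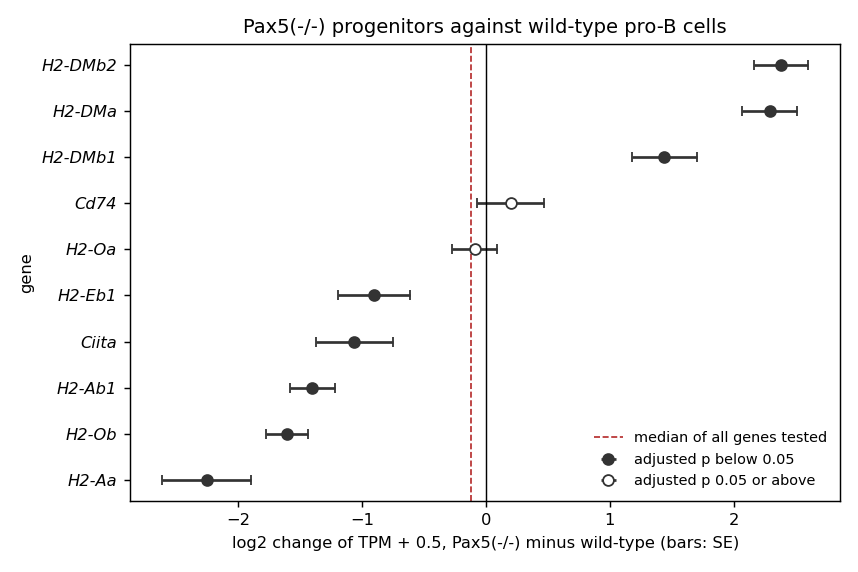
Log2 change of each class II pathway gene, Pax5(-/-) minus wild-type on the log2(TPM + 0.5) scale, with standard errors. Filled points have an adjusted p-value below 0.05, and the dashed line marks the median of all genes tested at −0.12. The genes spread from −2.25 (H2-Aa) to 2.38 (H2-DMb2).

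The I-A chain genes fell together but were expressed at very different levels. H2-Ab1, the beta chain gene, was the highest of the 10 genes in wild-type pro-B cells, with 226, 232 and 163 TPM, and was measured at 68.9 and 87.0 TPM in Pax5(-/-) cells. The groups did not overlap, and the mean was 2.66-fold lower in Pax5(-/-) cells (log2 change −1.4, SE 0.18, adjusted p = 0.0011 from limma). H2-Aa, the alpha chain gene, was at 11.4, 9.99 and 10.3 TPM in wild-type and at 0.970 and 3.14 TPM in Pax5(-/-) cells. It had the largest decrease of the 10 genes (log2 change −2.25, SE 0.36, adjusted p = 0.0030 from limma), although the Pax5(-/-) libraries stood apart from each other. Without Pax5(-/-) replicate 1 its log2 change was −1.60 and without replicate 2 it was −2.91, and it passed the test in both cases. The annotated 3′ ends of H2-Aa and H2-Ab1, which lie on opposite strands, share 88 bases, and no source states that reads were counted by strand. The 50-base sequences of their annotated transcripts were not shared with any other protein-coding gene.

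H2-Eb1, the beta chain gene of I-E, was expressed at a lower level still in wild-type cells. It was measured at 5.92, 3.57 and 3.89 TPM in wild-type and at 1.69 and 2.60 TPM in Pax5(-/-) cells. The groups did not overlap, with a log2 change of −0.90 (SE 0.29, adjusted p = 0.045 from limma). This call was lost when any of the 5 libraries was left out, with adjusted p-values from 0.058 to 0.29. The neighbouring beta chain gene H2-Eb2 moved the other way, from 3.00, 1.65 and 2.39 TPM to 7.80 and 11.0 TPM (log2 change 1.81, SE 0.28, adjusted p = 0.0026), and this call was lost without Pax5(-/-) replicate 2 (adjusted p = 0.059). H2-Ea was listed at 0 in all 5 libraries. The 2 Eb genes thus went in opposite directions, and the promoter windows of both carry the boxes printed above.

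Ciita, which encodes the coactivator of the class II promoters, was the lowest of the 10 genes. It was at 1.22, 0.742 and 1.4 TPM in wild-type and at 0.286 and 0.245 TPM in Pax5(-/-) cells. All wild-type libraries lay above both Pax5(-/-) libraries, and the log2 change was −1.06 (SE 0.31, adjusted p = 0.032 from limma). At these low levels the added 0.5 TPM makes the change smaller, and the ratio of the means was 4.22. The call was lost without wild-type replicate 1 (adjusted p = 0.052), without Pax5(-/-) replicate 1 (0.10) and without Pax5(-/-) replicate 2 (0.13), and without wild-type replicate 3 the gene was below the filter.

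Cd74, the invariant chain gene, did not pass the test. It was measured at 48.8, 42.0 and 25.9 TPM in wild-type and at 36.2 and 51.5 TPM in Pax5(-/-) cells, so that the groups overlapped. The log2 change was 0.20 (SE 0.27, adjusted p = 0.60 from limma), with the sign turned when wild-type replicate 3 or Pax5(-/-) replicate 2 was left out. Its entry carries a mark that appears to stand for overlap with another gene, and the sources used here do not explain it. The same mark is on the entry of H2-Oa, and on those of Rfxank, Ctsb and Cox6a2, which are named below.

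The H2-DM genes, whose products load peptides, rose in Pax5(-/-) cells. H2-DMa was at 18.5, 26.6 and 16.1 TPM in wild-type and at 90.0 and 110 TPM in Pax5(-/-) cells, a 4.91-fold higher mean (log2 change 2.29, SE 0.22, adjusted p = 0.00025 from limma). H2-DMb2 was at 2.90, 3.00 and 4.05 TPM in wild-type and at 17.0 and 21.6 TPM in Pax5(-/-) cells, a 5.81-fold higher mean (log2 change 2.38, SE 0.22, adjusted p = 0.00024). H2-DMb1 was at 2.37, 4.06 and 2.67 TPM in wild-type and at 8.31 and 9.51 TPM in Pax5(-/-) cells (log2 change 1.44, SE 0.26, adjusted p = 0.0046). None of the 3 genes overlapped between genotypes, and 26.1% of all genes tested likewise lay above every wild-type library. H2-DMa and H2-DMb2 passed the test whichever library was left out, with log2 changes from 2.14 to 2.49 and from 2.21 to 2.55, whereas H2-DMb1 lost it without Pax5(-/-) replicate 1 (adjusted p = 0.055) or 2 (0.083). H2-DMb1 and H2-DMb2 are near-identical in part, since 27.1% of the 50-base sequences of the annotated H2-DMb1 transcript and 28.6% of those of H2-DMb2 were shared between them, so the split of reads between these 2 genes is uncertain. For H2-DMa no such sequence was shared with another gene.

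The genes of the H2-DM inhibitor H2-O went apart. H2-Ob, the beta chain gene, was at 65.0, 78.4 and 87.8 TPM in wild-type and at 22.1 and 27.9 TPM in Pax5(-/-) cells, without overlap and with a 3.08-fold lower mean (log2 change −1.60, SE 0.17, adjusted p = 0.00038 from limma). The call beyond 3-fold lies close to its threshold, and the test without that threshold was passed under every alternative. H2-Oa, the alpha chain gene, was at 57.7, 57.1 and 42.5 TPM in wild-type and at 42.6 and 55.5 TPM in Pax5(-/-) cells. Its groups overlapped, and it did not pass the test (log2 change −0.09, SE 0.18, adjusted p = 0.71), with the sign turned by scaling to median ratios, by quantile normalization and without Pax5(-/-) replicate 1. The ratio of H2-Oa to H2-Ob was 0.888, 0.728 and 0.484 in wild-type and 1.93 and 1.99 in Pax5(-/-) cells. This ratio was chosen after the values were seen and was not tested.

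The order of the genes by level therefore differed between the genotypes. In wild-type pro-B cells H2-Ab1 was followed by H2-Ob, H2-Oa, Cd74, H2-DMa, H2-Aa, H2-Eb1, H2-DMb2, H2-DMb1 and Ciita. The ranges of H2-Oa and Cd74, of Cd74 and H2-DMa, of H2-Eb1 and H2-DMb2, and of H2-DMb2 and H2-DMb1 overlapped. Within each wild-type library, however, H2-Oa lay above Cd74 and Cd74 above H2-DMa. The order of H2-Eb1, H2-DMb2 and H2-DMb1 varied between the libraries. In Pax5(-/-) cells H2-DMa came first, above H2-Ab1, and was followed by H2-Ab1, H2-Oa, Cd74, H2-Ob, H2-DMb2, H2-DMb1, H2-Eb1, H2-Aa and Ciita. Among these, the ranges of H2-Oa and Cd74 and of H2-Eb1 and H2-Aa overlapped.

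Ratios within a library do not depend on how the library was scaled. The summed TPM of H2-DMa, H2-DMb1 and H2-DMb2 was 0.0976, 0.137 and 0.129 times that of the 3 chain genes in wild-type and 1.61 and 1.52 times in Pax5(-/-) cells, a log2 difference of 3.71 (pooled SD 0.22). The H2-O genes together were at 5.17, 4.02 and 5.71 times the H2-DM genes in wild-type and at 0.562 and 0.591 times in Pax5(-/-) cells (log2 difference −3.09, pooled SD 0.21). As sums, the H2-DM genes thus lay below the chain genes and the H2-O genes in every wild-type library and above both in every Pax5(-/-) library. H2-Ab1 made up most of the chain sum, with 226, 232 and 163 of 243, 246 and 177 TPM in wild-type. H2-DMa alone lay above H2-Aa and H2-Eb1 in every wild-type library.

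The ratio of Cd74 to the 3 chain genes went from 0.200, 0.171 and 0.147 to 0.506 and 0.555 (log2 difference 1.63, pooled SD 0.19). The ratio of H2-Ab1 to H2-Aa was 19.9, 23.3 and 15.8 in wild-type and 71.0 and 27.7 in Pax5(-/-) cells (log2 difference 1.19, pooled SD 0.60). That of H2-Eb1 to H2-Aa was 0.520, 0.357 and 0.377 in wild-type and 1.74 and 0.828 in Pax5(-/-) cells (log2 difference 1.54, pooled SD 0.50). Pax5(-/-) replicate 1, where H2-Aa was at its lowest, gave the larger value in both ratios. Without it the log2 differences were 0.51 and 1.01, and without replicate 2 they were 1.87 and 2.08. The ratio of H2-DMa to the sum of H2-DMb1 and H2-DMb2 was 3.51, 3.76 and 2.4 in wild-type and 3.56 and 3.54 in Pax5(-/-) cells (log2 difference 0.17, pooled SD 0.29), and the groups overlapped. Exact two-sided permutation tests over the 5 libraries gave p = 0.8 for this last ratio and p = 0.1 for each of the other 5, which is the smallest value that the 10 ways of splitting 5 libraries into 3 and 2 allow. Adjusted over the 6 ratios, the values were 0.8 and 0.12.

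**Figure D3:**
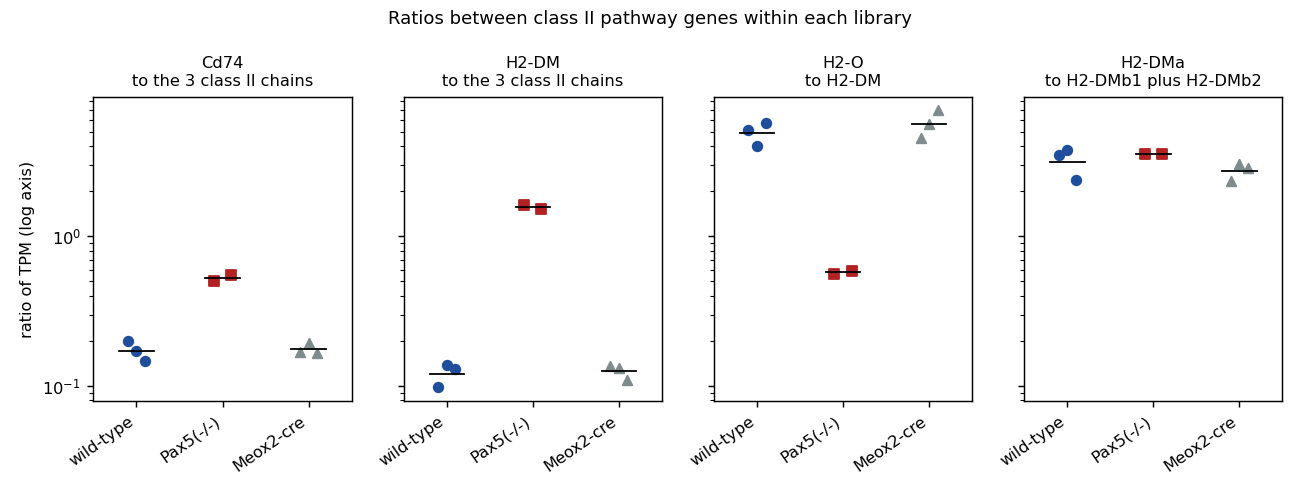
Ratios of TPM within each library on a log axis shared by the 4 panels, with a point for each library and a bar for the geometric mean of each group (wild-type n = 3, Pax5(-/-) n = 2, Pax5(+/+) Meox2-cre n = 3 from mm10 tables). H2-DM against the 3 chain genes lies at 0.0976 to 0.137 in wild-type and at 1.52 and 1.61 in Pax5(-/-) libraries, and H2-DMa against H2-DMb1 plus H2-DMb2 overlaps between the groups.

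All class II genes other than Cd74 on chromosome 18 and Ciita on chromosome 16 lie in the MHC class II region of chromosome 17. In the mm9 annotation of GENCODE (build NCBIM37) the order is H2-Oa (34229285 to 34232179), H2-DMa (34272127 to 34276046), H2-DMb2 (34280252 to 34288498), H2-DMb1 (34290017 to 34297168), H2-Ob (34375848 to 34390850), H2-Ab1 (34400154 to 34406363), H2-Aa (34406276 to 34424772, minus strand), H2-Eb1 (34442828 to 34453144) and H2-Eb2 from 233.3 kb after the start of H2-Oa. The changes followed this order in blocks, except for the genes at the ends of the list. H2-Oa did not pass the test, and H2-Eb2 rose (log2 change 1.81) directly after H2-Eb1, which fell. The 3 neighbouring H2-DM genes, which start 42.8 to 60.7 kb after the start of H2-Oa, rose, and the 4 neighbouring genes H2-Ob, H2-Ab1, H2-Aa and H2-Eb1, whose outermost starts lie at 146.6 to 213.5 kb, fell.

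Of 6 genes of other function that were followed in this region, Tap1, Psmb9, Psmb8 and Tap2 lie between these blocks, Brd2 lies before the H2-DM genes and Btnl2 after H2-Eb2. Of the 6, 3 rose, against 15.6% of all genes tested, and none fell, against 21.5%. Tap1, a subunit of the peptide transporter of the class I pathway, rose from 120, 141 and 115 TPM to 273 and 301 TPM (log2 change 1.20, SE 0.12, adjusted p = 0.00032 from limma). The immunoproteasome subunit genes Psmb8 and Psmb9, which border Tap1, rose by less (log2 changes 0.47 and 0.37, adjusted p = 0.011 and 0.018), and these calls were lost when either Pax5(-/-) library was left out. Tap2 (0.23), the chromatin reader gene Brd2 (−0.25) and Btnl2 (−0.75), given as log2 changes, did not pass the test. In the Meox2-cre libraries, set beside without a test because of the other genome build, Tap1 was at 240, 241 and 236 TPM. Their values of Tap1 and Psmb8 thus lay between those of wild-type and Pax5(-/-) libraries, and their values of Psmb9 above both.

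**Figure D4:**
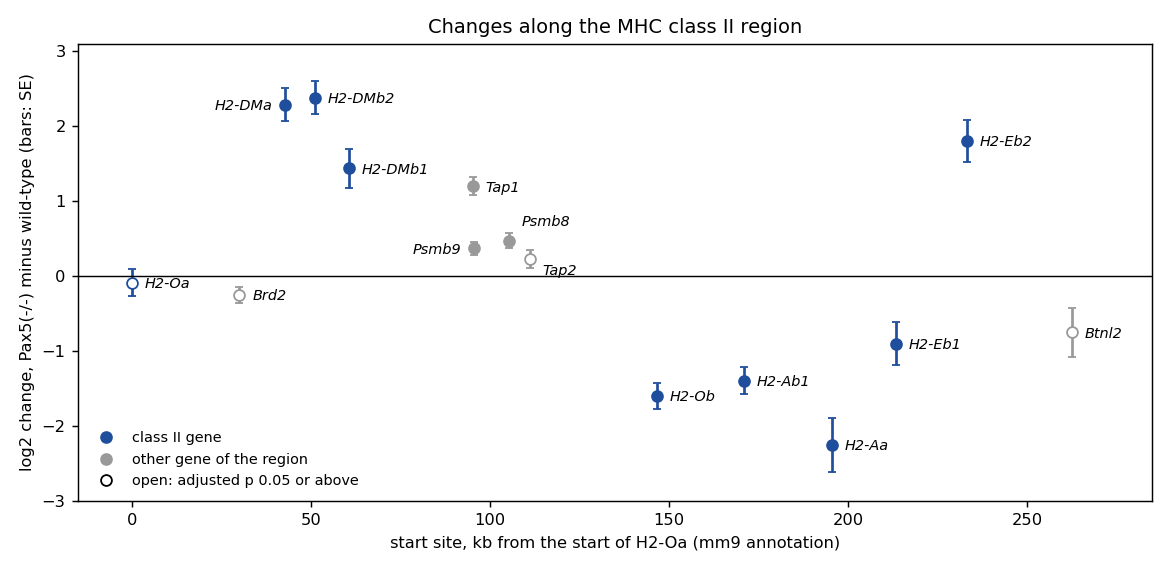
Log2 change (Pax5(-/-) minus wild-type, with standard errors) against the outermost annotated start of each gene in kb from the start of H2-Oa, for class II genes (blue) and other genes of the region (grey). Filled points have an adjusted p-value below 0.05. The H2-DM genes and H2-Eb2 lie above 0, and H2-Ob, H2-Ab1, H2-Aa and H2-Eb1 lie below 0.

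Factors upstream of the class II genes were next examined. For the counts in this and the following lists, 15.6% of all genes tested rose and 21.5% fell. Of 6 genes known to act on Ciita, 5 passed the filter, of which 2 fell, 1 rose and 2 did not pass the test. Irf4, an interferon regulatory factor of lymphocytes, was at 104, 102 and 139 TPM in wild-type and at 19.5 and 26.2 TPM in Pax5(-/-) cells (log2 change −2.30, SE 0.18, adjusted p = 0.00011 from limma). Irf8, which acts in B cells and myeloid cells, was at 231, 241 and 240 TPM and at 40.4 and 78.4 TPM (log2 change −2.06, SE 0.24, adjusted p = 0.00069). Spi1, encoding PU.1, which binds Ciita promoters together with these factors, was at 207, 176 and 141 TPM in wild-type and at 349 and 347 TPM in Pax5(-/-) cells (log2 change 1.01, SE 0.16, adjusted p = 0.0026), and lost the call without Pax5(-/-) replicate 2 (adjusted p = 0.054). Irf1 (0.23) and Irf2 (−0.06), given as log2 changes, were the 2 that did not. Prdm1, a repressor of Ciita in plasma cells, was below 1 TPM in all libraries.

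The factors that occupy the class II promoters were expressed well above Ciita in both genotypes. All 7 genes passed the filter, 4 of them fell and none rose. Rfxap, a subunit of the X box factor RFX, was at 36.7, 48.4 and 47.6 TPM in wild-type and at 20.8 and 23.5 TPM in Pax5(-/-) cells (log2 change −0.97, SE 0.16, adjusted p = 0.0031 from limma). The NF-Y subunit genes Nfyb (−0.81) and Nfyc (−0.52) and the gene of the X2 box factor Creb1 (−0.45) had smaller decreases, with adjusted p = 0.0070, 0.0096 and 0.048. Rfx5 (−0.37), Rfxank (−0.47) and Nfya (−0.06) did not pass the test. None of the 4 remained past the threshold without Pax5(-/-) replicate 1, and 1 did without replicate 2.

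The proteases and their helpers in the endosome went in both directions. Of 9 genes, 4 rose, 2 fell and 3 did not pass the test. Lgmn, encoding an asparaginyl endopeptidase that cuts antigens and the invariant chain, rose from 61.8, 57.9 and 61.1 TPM to 235 and 201 TPM (log2 change 1.84, SE 0.11, adjusted p = 2.8e-05 from limma). Ifi30, encoding the thiol reductase GILT, which opens disulfide bonds of antigens, fell from 181, 120 and 103 TPM to 27.9 and 31.4 TPM (log2 change −2.12, SE 0.22, adjusted p = 0.00041). The cathepsin genes Ctsb (−0.56) and Ctsd (0.55) followed with smaller log2 changes, as did Cst3 (0.55), encoding the cathepsin inhibitor cystatin C, and Ctss (0.38), the cathepsin gene best known for the last cut of the invariant chain. Only 1 of the 4 increases passed the test when either Pax5(-/-) library was left out. Ctsb lost its call without Pax5(-/-) replicate 1 (adjusted p = 0.17), without wild-type replicate 2 (0.061) and with median ratios (0.052). Ctsh stood at 1.10 and 6.11 TPM in the 2 Pax5(-/-) libraries, against 1.79, 2.14 and 2.71 TPM in wild-type, and did not pass the test. The 4 genes that rose also lay above every wild-type value in each Meox2-cre library, which was set beside without a test.

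**Figure D5:**
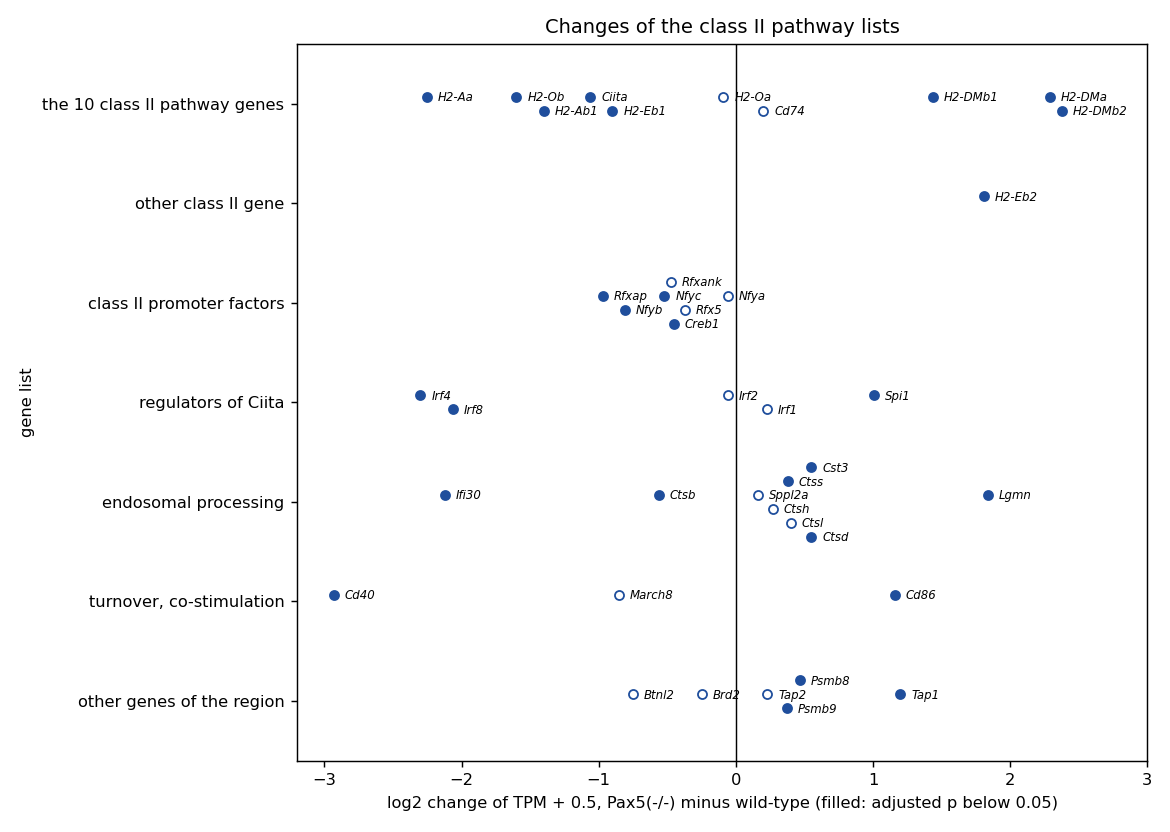
Log2 change (Pax5(-/-) minus wild-type) of each tested gene, grouped by list, with filled points for an adjusted p-value below 0.05. Points within a list are spread vertically only to keep names apart. The 10 class II pathway genes range from −2.25 to 2.38, and the promoter factors from −0.97 to −0.06.

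Since dendritic cells and macrophages express class II genes, their markers were followed in the same libraries. Of 9 markers of conventional dendritic cells 2 passed the filter, and 1 of these rose. This was Flt3, a receptor also present on early lymphoid progenitors, which made up most of the summed level of 327 and 392 TPM in Pax5(-/-) libraries against 11.7 to 19.6 TPM in wild-type. The other 8 summed to 0.579, 1.48 and 1.70 TPM in wild-type and to 0.813 and 3.62 TPM in Pax5(-/-) cells, and 4 of the 9 were at 0 in Pax5(-/-) replicate 1 and none in replicate 2. The part of conventional dendritic cells in the differences was not tested.

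Of 8 markers of plasmacytoid dendritic cells, 5 passed the filter and 4 rose, namely Siglech, Cox6a2, Clec12a and Pacsin1, of which Siglech passed the filter only through the Pax5(-/-) mean. Without Bst2 they summed to 10, 8.56 and 9.92 TPM in wild-type and to 55.1 and 89.8 TPM in Pax5(-/-) cells. Siglech, the receptor that defines these cells, was at 0.106, 0.570 and 1.12 TPM in wild-type and at 1.79 and 9.06 TPM in Pax5(-/-) cells. Pax5(-/-) replicate 2 was thus higher than replicate 1 in these markers. Without replicate 2 the log2 changes of H2-DMa and H2-DMb2 were 2.15 and 2.21, and those of H2-Ab1, H2-Aa and H2-Ob were −1.56, −2.91 and −1.77. Whether plasmacytoid dendritic cells took part in the increases was not tested.

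Of 8 markers of monocytes and macrophages, 4 passed the filter, 1 fell and none rose. Their sum varied within the wild-type libraries (24.5, 67.6 and 81.8 TPM) and was 20.3 and 25.9 TPM in Pax5(-/-) cells, with Cd14 at 0 in both and in 2 of the 3 wild-type libraries. Of 6 markers of mature B cells, 4 passed the filter and fell (Ms4a1, Cd22, Faim3 and Ighd), with Ms4a1 and Faim3 past the filter only through the wild-type mean. The 6 summed to 102, 80.0 and 156 TPM in wild-type and to 35 and 34.2 TPM in Pax5(-/-) cells, and they moved in the direction of H2-Ab1, H2-Aa and H2-Ob. The gate for pro-B cells takes Kit+ CD2- IgM- IgD- cells, and no source used here gives the share of mature B cells that remained. The part of mature B cells in the decreases was not tested. Of 11 pro-B cell markers, 7 fell, against 21.5% of all genes tested, and none rose. The other 4 did not pass the test, with log2 changes of 0.48 (Il7r), 0.29 (Kit), 0.16 (Ptprc) and 0.07 (Dntt). Vpreb1, which encodes a part of the surrogate light chain that defines these early stages, was at 1996, 2147 and 1914 TPM in wild-type and at 351 and 322 TPM in Pax5(-/-) cells.

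The Pax5(+/+) Meox2-cre pro-B cells gave the levels of the same genes at the age of 3 weeks. Their reads were aligned with other software to another genome build, so these values are set beside the others without a test. H2-Ab1 was again the highest, with 250, 204 and 229 TPM, followed by H2-Ob with 110, 111 and 118 TPM and H2-Oa with 62.7, 61.4 and 78.2 TPM. Cd74 was at 47.1, 44.5 and 43.0 TPM. Up to this place in the order no neighbours overlapped in range.

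The H2-DM genes stayed low in these libraries. H2-DMa was at 26.6, 22.9 and 21.0 TPM, H2-DMb1 at 7.42, 5.58 and 4.33 TPM and H2-DMb2 at 3.94, 1.91 and 2.95 TPM. All 3 values of each H2-DM gene lay below both Pax5(-/-) values of that gene. The Meox2-cre values of H2-DMb1, H2-Aa, H2-Eb1, Ciita, H2-Oa and H2-Ob all lay above the wild-type values of the same gene. The ranges of H2-Ab1, Cd74, H2-DMa and H2-DMb2 overlapped with wild-type.

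H2-Aa was at 20.9, 18.3 and 21.3 TPM and H2-Eb1 at 8.35, 7.96 and 9.30 TPM. Ciita was at 2.70, 2.35 and 2.92 TPM, and its range overlapped that of H2-DMb2, as the range of H2-DMa overlapped that of H2-Aa. The H2-DM genes summed to 0.136, 0.132 and 0.109 times the chain genes and the H2-O genes to 4.54, 5.68 and 6.95 times the H2-DM genes. In both ratios the Meox2-cre libraries lay on the wild-type side of the Pax5(-/-) libraries. H2-Ea, at 0 in the mm9 tables, was listed at 0.152, 0.147 and 0.148 TPM. Siglech was at 3.79 TPM in Meox2-cre replicate 1 and at 0.605 and 1.12 TPM in the others.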

How the data were processed

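RNA-seq values of 8 libraries were used, 1 table per library. The deposited values are TPM, which the authors calculated per gene from featureCounts 1.5.0 counts. For wild-type and Pax5(-/-) libraries the authors aligned reads with TopHat 1.4.1a to mm9, and for Meox2-cre libraries with STAR 2.4.2a to mm10. TPM hold no read numbers, so depth, floors and counting intervals are unknown. For counting, the authors name the default settings of featureCounts for mm9 and the setting -p for mm10. Strand and the treatment of reads with several matches are not spelled out beyond these settings.

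Groups came from the labels, and replicate numbers only name the libraries. The genotypes were compared by limma 3.58.1 (R 4.3.3, lmFit and eBayes with trend, no covariates) on log2(TPM + 0.5), a scale that understates changes of low genes. The 12066 genes with a mean over 1 TPM in either genotype were tested, with Benjamini-Hochberg adjustment over all of them. Calls left out immunoglobulin and T cell receptor entries and required 3-fold and 5 TPM. The script was first checked with simulated data. The ratios were compared by exact permutation.

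The 10 genes and the lists were chosen with earlier results of these data known. Named are all 10 genes, Pax5, up to 4 genes per list past the test by size of change, and other list genes where a result needs them. Some list genes and a part of the sort gates are not reported here. Alternatives were other pseudocounts, filters, eBayes settings and scalings, a 2-fold threshold and leaving out each library. Promoter sequences are from RefSeq (GRCm38.p6), and coordinates and transcripts from GENCODE vM1 on mm9. Of the 10 genes, 7 had a promoter window. The ChIP-seq samples, including binding of Pax5, are not analysed here. Tables and figures were made with Python 3.11.15, numpy 2.4.6, pandas 2.3.3 and matplotlib 3.10.9.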

Additional observations from a re-analysis of the deposited data

How the results depend on the processing

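No paired analysis was possible because the replicate numbers only name the libraries. The number of class II pathway genes that rose was 3 under every alternative that kept all libraries and 2 or 3 when a library was left out. The number that fell was 5 in the main comparison, 3 with a filter at 5 TPM (which leaves out H2-Eb1 and Ciita) and 3 with quantile normalization, and 3 to 4 when a library was left out. The number called lower beyond 3-fold fell from 2 to 1 with a pseudocount of 1, with median ratios and with quantile normalization, and was 1 to 2 when a library was left out, and the number called higher was 2 to 3. The median log2 change of the 10 genes was −0.50, and 0.05 with the filter at 5 TPM, where fewer genes remain, and it ranged from −0.65 to −0.24 when a library was left out. Median ratios and quantile normalization raised the median log2 change of all genes by 0.11 and 0.10. The log2 change of H2-Oa turned to 0.02 under both scalings and ranged from −0.28 to 0.10 when a library was left out, and that of Cd74 from −0.07 to 0.45, with the sign turned also without Pax5(-/-) replicate 2 (−0.05), all short of the threshold. Other signs that turned, likewise without passing the test, were those of Nfya (0.06 with median ratios, 0.02 with quantile normalization, −0.17 to 0.05 with a library left out), Irf2 (0.06 and 0.03 with the scalings) and Ctsh (−0.75 to 1.30 with a library left out), and the log2 difference of H2-DMa to H2-DMb1 plus H2-DMb2 ranged from −0.03 to 0.29 in this way. The cause was not tested. H2-Aa, H2-Ab1, H2-DMa, H2-DMb2 and H2-Ob kept direction and passed the test under all 14 alternatives each, whereas H2-Eb1 lost it in 8 of 13, Ciita in 4 of 12 and H2-DMb1 in 2 of 14. H2-Eb1 lost it with no filter (adjusted p = 0.094), median ratios (0.075) and quantile normalization (0.11), and Ciita with quantile normalization (0.058). With a Pax5(-/-) library left out, the lone library is assumed to vary like the wild-type ones, and fewer samples alone make calls fewer. The unknown read depth limits the statements on Ciita, H2-Aa and H2-Eb1, the genes lowest in Pax5(-/-) cells.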

Other observations

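Genes of class II turnover and co-stimulation, which accompany antigen presentation to CD4 T cells, also went apart. Of 6 genes 3 passed the filter on low values. Cd40, the receptor through which helper T cells activate B cells, was at 4.61, 4.46 and 4.87 TPM in wild-type and at 0.166 and 0.184 TPM in Pax5(-/-) cells (log2 change −2.93, SE 0.24, adjusted p = 0.00012 from limma), and passed the filter only through the wild-type mean. Cd86, a ligand of the co-stimulatory receptor CD28, was at 1.35, 1.57 and 1.64 TPM and at 3.44 and 4.62 TPM (log2 change 1.16, SE 0.25, adjusted p = 0.0093), and lost the call without Pax5(-/-) replicate 2 (adjusted p = 0.093). Neither gene overlapped between the genotypes. Of all genes tested, 37.4% lay below and 26.1% above every wild-type library in both Pax5(-/-) libraries. March8, encoding a ubiquitin ligase of the family that removes class II from the surface, had a log2 change of −0.85 (adjusted p = 0.095). Its relative March1 and the genes Cd80 and Cd83 were below 1 TPM in all 8 libraries.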
